A study of Capra hircus with 2 samples.

Results

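The miR-106a-363 and miR-106b-25 clusters are the sister copies of the miR-17 cluster, which runs to miR-92a, and their mature miRNAs were compared here between natural killer (NK) cells of the goat uterus and of goat blood. Members were all table entries named chi-miR-106a, chi-miR-18b, chi-miR-20b, chi-miR-363, chi-miR-106b, chi-miR-93, chi-miR-25 or chi-miR-92b, on either arm of the hairpin. They made up 13 of the 590 listed mature miRNAs, and all 8 names were found. Both arms were listed for miR-106a, miR-18b, miR-106b, miR-93 and miR-25, only the 3p arm for miR-363, and miR-20b and miR-92b were listed with no arm given.

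The uNK group was 1 small RNA library of NK cells separated from the uterus of female goats, and the pNK group was 1 library of NK cells separated from peripheral blood of female goats. Both groups share sex and Trizol extraction, and no treatment, age, breed or pregnancy stage is given in the labels. Neither the number of animals behind a library nor the marker used for the separation is given. The table lists only miRNAs called different by the authors: the smallest absolute log2 ratio in the authors' deposited table is 1.01.

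MicroRNAs of the same seed family pair with largely the same target messages, because the seed at the 5′ end of the miRNA sets the pairing. The members fall into 3 such families. miR-106a, miR-20b, miR-106b and miR-93 belong to the miR-17 family, known in mouse and human for repressing cell-cycle inhibitors and pro-apoptotic genes. miR-25, miR-92b and miR-363 belong to the miR-25 family, which also holds miR-92a, and miR-18b belongs to the miR-18 family. In mammals the clusters are best known for activity in proliferating cells, lymphocytes among them, and the miR-106b-25 hairpins are cut from an intron of MCM7, a subunit of the helicase that licenses DNA replication.

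The goat gene table of assembly ARS1.2 places MIR106B, MIR93 and MIR25 side by side on chromosome 25, inside the bounds of MCM7. It lists MIR106A, MIR18B, MIR20B, MIR92B and MIR363 at neighbouring positions, each within 10 kb of the next, on sequence not assigned to a chromosome. The table does not say whether that is a single stretch of sequence. The goat gene named MIR92B was listed between MIR20B and MIR363, the place that a copy of miR-92a holds in the human cluster, and it is counted here with the miR-106a-363 cluster. The genes of the miR-17 cluster lie on chromosome 12.

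All 13 member arms were lower in uNK than in pNK. That share is set against the whole table, where 62.0% of the 590 entries and 45.9% of the 314 entries with goat miRNA names were lower in uNK. At least 4-fold lower were 11 of the 13 arms, against 53.4% of all entries and 36.9% of the annotated ones. The members together took 1358 reads per 1000000 reads of the library (RPM) in uNK, against 10226 RPM in pNK. This was 7.53-fold lower in uNK (95% interval 7.45 to 7.61). Scaling moved this value more than counting error did, to 4.503-fold lower with trimmed-mean (TMM) and 12.0-fold lower with median-ratio factors from the listed miRNAs, and it moves all folds below by the same factors. The interval, like all those below, covers counting error only, since 1 library per group leaves no replicate check and no test between the groups. The median log2 ratio of uNK over pNK was -3.43 over the 13 member arms, with the arm at 0 reads set to its floor, against -3.11 over the 144 annotated arms listed as lower. A smaller number of cells of a type and less of the miRNA per cell cannot be told apart in such libraries.

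The 2 libraries held 31780927 reads (uNK) and 30063448 reads (pNK), as implied by the deposited values. Marker miRNAs of other cell types, and of lymphocytes, to which NK cells belong, also differed between the libraries. Their counts stand against 170 of the 314 annotated entries higher in uNK and 144 lower. All 11 listed arms of 6 smooth muscle and stromal miRNAs were higher in uNK, with a summed level of 191215 RPM in uNK against 12889.5 RPM in pNK. All 5 listed epithelial miRNAs were higher as well, at 3592 RPM in uNK against 257 RPM in pNK. Both arms of the myeloid miR-223 were lower, at 21.1 RPM in uNK against 28632 RPM in pNK. Of 5 lymphocyte miRNAs, 3 were listed, and their 4 arms were all lower, at 186 RPM in uNK against 20518 RPM in pNK. These were miR-150, miR-155 and, by its 3p arm only, miR-181b. miR-142 and miR-181a were not among the miRNAs called different, so the sum does not cover them. Of 3 red cell miRNAs, miR-451 and miR-144 were listed, and their 4 arms were higher, at 9817 RPM in uNK against 3258 RPM in pNK. The part of cell composition in the member values was not tested.

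**Figure D1:**
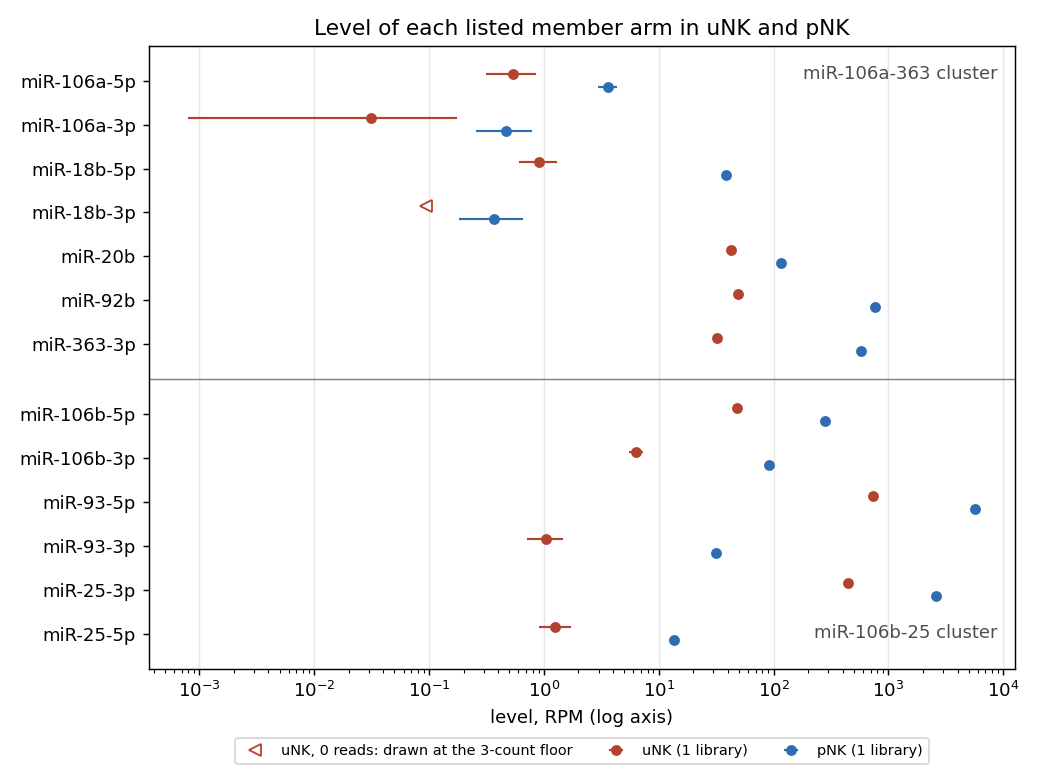
Level of each listed member arm in RPM on a log axis, with exact Poisson 95% bars, for the uNK library (red) and the pNK library (blue). Every arm sits lower in uNK, from miR-93-5p at 728 against 5688 RPM to miR-18b-3p, which had no read in uNK and is drawn at the floor of 3 counts.

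The miR-106b-25 cluster carried most of the member reads in both libraries. It took 90.8% of them in uNK (Clopper-Pearson 95% interval 90.5 to 91.1%) and 85.3% in pNK (85.2 to 85.4%). Its summed level was 1233 RPM in uNK against 8722 RPM in pNK, 7.07-fold lower in uNK (6.999 to 7.149). The miR-106a-363 cluster was at 125 RPM in uNK against 1503 RPM in pNK, which is 12.0-fold lower (11.6 to 12.4). The intervals of the cluster folds do not overlap. Most miR-106a-363 reads came from miR-92b and miR-363-3p, with 2567 of 3977 reads in uNK and 40445 of 45193 in pNK. They were 15.6-fold and 18.2-fold lower in uNK. Of the rest, miR-20b held most reads and was 2.68-fold lower, less than miR-106b-25, while miR-18b-5p was 42.1-fold lower. The cluster fold without both miR-92b and miR-363-3p was not computed, so the order of the clusters is not shown apart from them.

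Within miR-106b-25, chi-miR-93-5p was the most abundant arm of all members. It was listed with 23137 reads and 728 RPM in uNK, against 171007 reads and 5688 RPM in pNK. chi-miR-25-3p, the founding member of its seed family, had 14263 reads and 449 RPM in uNK, against 78744 reads and 2619 RPM in pNK. chi-miR-106b-5p, which shares the miR-17 seed, had 1514 reads and 47.6 RPM in uNK, against 8389 reads and 279 RPM in pNK. The 3 main arms thus kept their order of level in both libraries, with no overlap of intervals between them.

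The folds of these 3 arms lay close together. miR-106b-5p was 5.86-fold lower in uNK (5.54 to 6.19) and miR-25-3p 5.84-fold lower (5.73 to 5.94). The ratio of their folds was 0.996, with an interval of 0.941 to 1.06 that holds 1. miR-93-5p was 7.81-fold lower (7.71 to 7.92), and its fold differed from that of miR-25-3p by a factor of 1.34 (1.31 to 1.37) and from that of miR-106b-5p by a factor of 1.33 (1.26 to 1.41). Such ratios of folds do not depend on how the libraries are scaled to each other. No pair of main arms in this cluster differed by as much as 2-fold.

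The miR-106a-363 cluster was less even. chi-miR-92b had 1553 reads and 48.9 RPM in uNK, against 22974 reads and 764 RPM in pNK, and was 15.6-fold lower in uNK (14.9 to 16.5). chi-miR-363-3p, its listed neighbour in the gene table and a member of the same seed family, had 1014 reads and 31.9 RPM in uNK, against 17471 reads and 581 RPM in pNK. It was 18.2-fold lower (17.1 to 19.4). These neighbours differed in fold by a factor of 1.16 (1.07 to 1.26), the smallest difference among the 10 pairs of main arms of this cluster. The other 9 pairs differed at least 2-fold, and none of the 10 intervals holds 1.

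chi-miR-20b, of the miR-17 family, had the smallest difference of all members. It was listed with 1363 reads and 42.9 RPM in uNK, against 3459 reads and 115 RPM in pNK, and was 2.68-fold lower in uNK (2.52 to 2.86). With TMM it was 1.60-fold lower, the only member arm then under a 2-fold difference. Its fold differed by a factor of 5.83 from that of miR-92b (5.38 to 6.32) and of 6.79 from that of miR-363-3p (6.21 to 7.42). miR-20b accordingly took 34.3% of the miR-106a-363 reads in uNK (32.8 to 35.8%) and 7.65% in pNK (7.41 to 7.90%). Without miR-20b the cluster was 16.9-fold lower in uNK (16.2 to 17.6).

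chi-miR-18b-5p had the largest difference of the members with reads in both libraries. It was listed with 29 reads and 0.912 RPM in uNK, against 1156 reads and 38.5 RPM in pNK, and was 42.1-fold lower in uNK (29.2 to 63.2). Among the annotated arms with reads in both libraries, 17 were at least as low in uNK, its own entry included. Annotated arms with 0 reads in uNK were left out of this count. Its passenger arm miR-18b-3p had 0 reads in uNK, against 11 reads and 0.366 RPM in pNK. The floor of 3 counts in the uNK library is 0.0944 RPM, and the exact upper limit for 0 reads is 0.116 RPM. Against the floor, miR-18b-3p was 3.88-fold lower in uNK, while the exact interval from 0 and 11 reads reaches down to 2.65-fold lower.

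miR-106a, which names the cluster, had few reads in both libraries. chi-miR-106a-5p had 17 reads and 0.535 RPM in uNK, against 108 reads and 3.59 RPM in pNK, 6.72-fold lower in uNK (4.01 to 12.0). miR-106a-3p had 1 read in uNK against 14 reads in pNK, a ratio of 14.8-fold with an interval of 2.25 to 626. miR-106a, miR-20b, miR-17, miR-20a, miR-93 and miR-106b are close in sequence. How the authors assigned reads that match several of them is not given in the sources used here, so the split of reads between these names is uncertain. The split between miR-18a and miR-18b, and between miR-92a and miR-92b, could not be checked either.

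The order of levels differed between the libraries below miR-93-5p and miR-25-3p, with the third place not settled in uNK. In pNK, miR-93-5p, miR-25-3p and miR-92b were followed by miR-363-3p, miR-106b-5p and miR-20b, all with separate intervals. In uNK, miR-92b at 48.9 RPM (46.5 to 51.4) and miR-106b-5p at 47.6 RPM (45.3 to 50.1) were not separated by counting error, and miR-20b came before miR-363-3p. Further down in uNK, miR-25-5p, miR-93-3p and miR-18b-5p had overlapping intervals, between 0.611 and 1.71 RPM. Next came miR-106a-5p at 0.535 RPM (0.312 to 0.856), whose interval overlaps those of miR-18b-5p and miR-93-3p but not that of miR-25-5p. miR-106a-3p and miR-18b-3p were lower still.

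**Figure D2:**
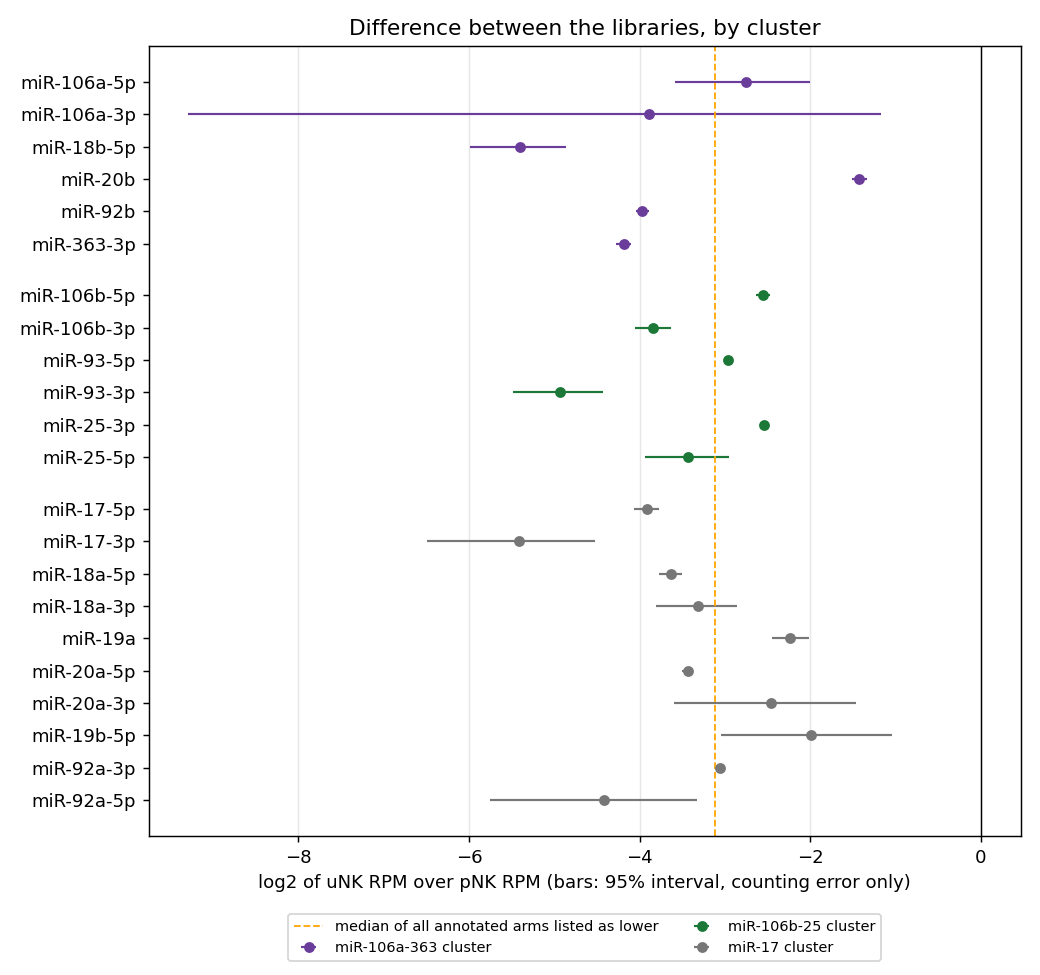
Log2 ratio of uNK RPM over pNK RPM for each listed arm with reads in both libraries. Arms are from the miR-106a-363, miR-106b-25 and miR-17 clusters, with 95% bars for counting error. The dashed line is the median of the annotated arms listed as lower, -3.11. All points lie left of 0, and the miR-106a-363 arms spread from miR-18b-5p at -5.40 to miR-20b at -1.42.

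Grouped by seed, the member reads divided in nearly the same way in both libraries. Counting the main arm of each miRNA, the miR-17 family took 60.7% of the reads in uNK (60.2 to 61.2%) and 60.3% in pNK (60.1 to 60.5%). The miR-25 family took 39.2% in uNK (38.8 to 39.7%) and 39.3% in pNK (39.1 to 39.5%). The miR-17 family members were 7.43-fold lower in uNK (7.33 to 7.53) and the miR-25 family members 7.49-fold lower (7.37 to 7.61), with overlapping intervals. The miR-18 family, with miR-18b-5p alone, took 0.0676% in uNK (0.0453 to 0.0971%) and 0.381% in pNK (0.360 to 0.404%).

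Inside each family the members shifted against each other. miR-25-3p took 33.3% of the main-arm reads in uNK and 26.0% in pNK. miR-92b and miR-363-3p together took 5.99% in uNK (5.76 to 6.21%) and 13.3% in pNK (13.2 to 13.5%). In the miR-17 family the shift ran the other way between the clusters. miR-20b and miR-106a-5p together took 3.22% in uNK (3.05 to 3.39%) and 1.18% in pNK (1.14 to 1.22%), while miR-93-5p and miR-106b-5p together took 57.5% in uNK (57.0 to 57.9%) and 59.1% in pNK (59.0 to 59.3%).

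**Figure D3:**
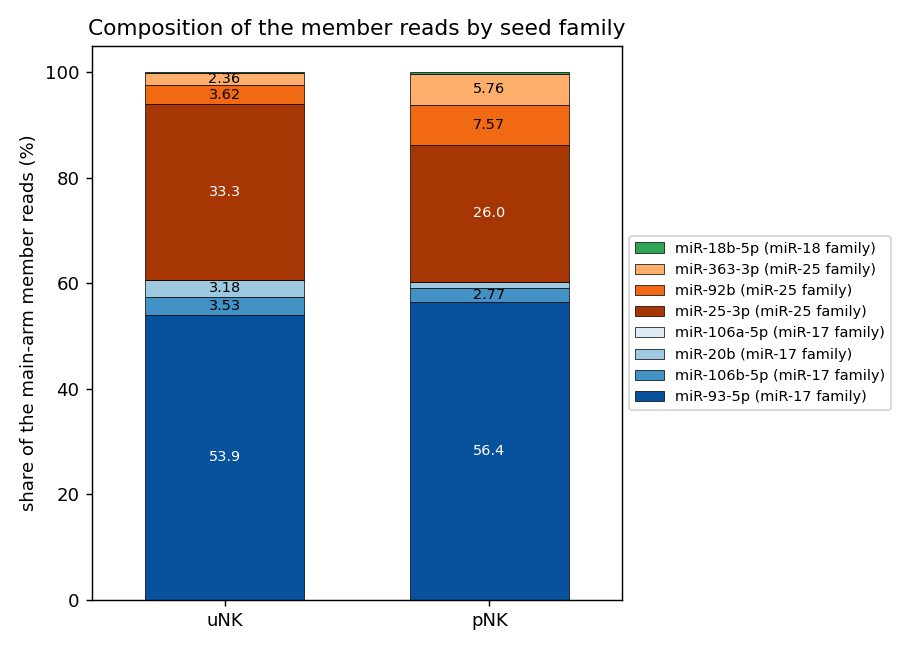
Share of the main-arm member reads taken by each miRNA, in percent, for uNK (left bar) and pNK (right bar), coloured by seed family (blue miR-17, orange miR-25, green miR-18). The blue blocks reach 60.7% in uNK and 60.3% in pNK, while miR-92b and miR-363-3p are thinner and miR-25-3p thicker in uNK.

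The less abundant arm of a hairpin, often called the passenger, was further down in uNK than the main arm in all 3 miR-106b-25 hairpins. The share of all listed hairpins with this pattern was not computed, so it is not shown to be particular to these members. miR-106b-3p had 201 reads in uNK against 2727 in pNK, and was 14.3-fold lower in uNK (12.4 to 16.6). It made up 11.7% of both miR-106b arms in uNK (10.2 to 13.3%) and 24.5% in pNK (23.7 to 25.3%). miR-93-3p had 33 reads in uNK against 954 in pNK, and was 30.6-fold lower (21.6 to 44.7). Its share of both miR-93 arms was 0.142% in uNK (0.0981 to 0.200%) and 0.555% in pNK (0.520 to 0.591%). miR-25-5p had 40 reads in uNK against 407 in pNK, and was 10.8-fold lower (7.76 to 15.3), with a share of 0.280% in uNK (0.200 to 0.381%) and 0.514% in pNK (0.466 to 0.567%).

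The ratio of 5p over 3p counts, with 0.5 counts added to each arm, was 2.44 times as high in uNK as in pNK for miR-106b (2.10 to 2.85) and 3.86 times as high for miR-93 (2.73 to 5.44). For miR-25, whose main arm is the 3p arm, it was 0.549 times the pNK ratio in uNK (0.397 to 0.758). For miR-106a and miR-18b the intervals, 0.270 to 9.02 and 0.0338 to 10.2, hold 1 at these low counts. The same comparison in the miR-17 cluster was mixed. The less abundant arm was also the further down in uNK for miR-17, with a 5p over 3p ratio 2.70 times that of pNK (1.45 to 5.02), and for miR-92a, whose main arm is the 3p arm, at 0.418 times (0.200 to 0.871). For miR-20a, whose main arm is the 5p arm, it went the other way, at 0.488 times (0.251 to 0.949), and for miR-18a the interval, 0.570 to 1.10, holds 1.

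**Figure D4:**
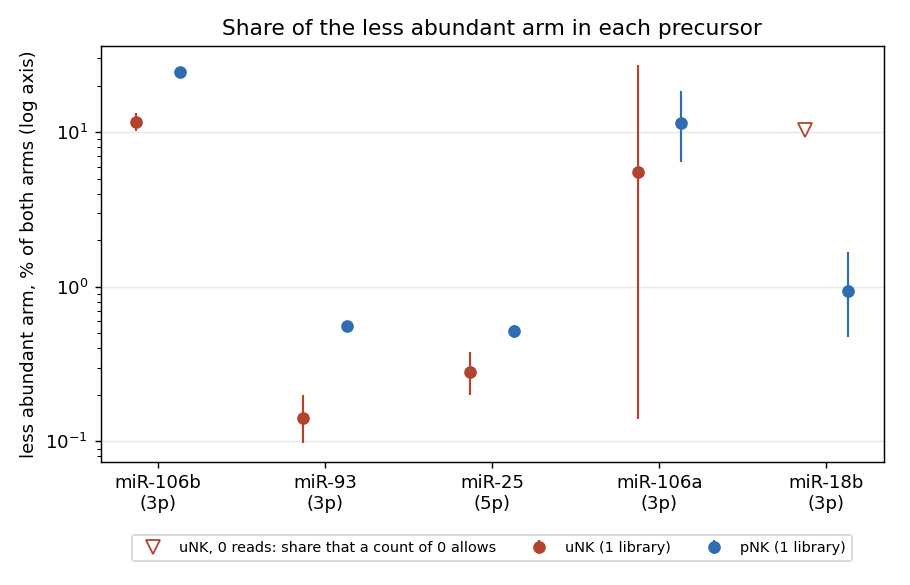
Share of the less abundant arm in the reads of both arms, in percent on a log axis, for the 5 members with both arms listed, with Clopper-Pearson 95% bars; the open triangle is the share that a count of 0 allows. For miR-106b, miR-93 and miR-25 the uNK points lie below the pNK points with separate bars, and for miR-106a the bars overlap.

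The members were set beside their counterparts of the miR-17 cluster, the founding cluster of the group. All 10 listed arms of miR-17, miR-18a, miR-19a, miR-19b, miR-20a and miR-92a were also lower in uNK. Their summed level was 737 RPM in uNK against 6431 RPM in pNK, 8.73-fold lower (8.61 to 8.85). Of miR-19b, only the 5p arm was listed, with 12 reads in uNK against 45 reads in pNK. Its other arm is not in the sum, and whether that arm differed between the libraries is not known. The seed relatives miR-32 and miR-367 were not among the listed miRNAs, so nothing is said of them. All 8 counterpart pairs differed in fold beyond counting error, 5 of them at least 2-fold.

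Over all pairs, the differences between counterparts had no common direction. In every miR-17 family pair, and in every miR-106b-25 pair, the member was less far down in uNK than its counterpart. miR-18b-5p, miR-92b and miR-363-3p were further down than theirs. miR-20a-5p was 10.8-fold lower in uNK (10.3 to 11.3). Its fold exceeded that of miR-20b by a factor of 4.04 (3.73 to 4.36) and that of miR-93-5p by 1.39 (1.32 to 1.45). miR-18a-5p was 12.4-fold lower (11.3 to 13.7), so the fold of miR-18b-5p was the larger by a factor of 3.39 (2.32 to 4.96). miR-17-5p was 15.1-fold lower (13.7 to 16.7), and its fold exceeded that of miR-106a-5p by a factor of 2.25 (1.34 to 3.79) and that of miR-106b-5p by 2.58 (2.30 to 2.89). Against miR-92a-3p, the fold of miR-92b was the larger by a factor of 1.88 (1.78 to 1.98) and that of miR-363-3p by 2.19 (2.05 to 2.33), whereas that of miR-25-3p was the smaller by a factor of 1.43 (1.40 to 1.46). The intervals of these factors do not cover any error in how reads were assigned between counterparts.

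Among these relatives, miR-93-5p took 81.5% of the main-arm reads of the miR-17 family in uNK (81.0 to 81.9%) and 81.8% in pNK (81.7 to 82.0%), intervals that overlap. miR-92a-3p took 54.7% of the miR-25 family in uNK (54.2 to 55.2%) and 57.3% in pNK (57.1 to 57.5%), and miR-25-3p took 38.4% in uNK (37.9 to 38.9%) and 28.2% in pNK (28.0 to 28.4%).

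The 3 annotated miRNAs outside these clusters with a log2 ratio nearest to the median of the 8 member arms with at least 1000 reads, -3.40, were miR-330-5p at -3.42, miR-27b-5p at -3.36 and miR-222-3p at -3.46. They were picked from 159 candidates, and likeness over 2 libraries means only a like ratio.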

How the data were processed

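Small RNA reads of 1 uNK and 1 pNK library were compared from 1 table of the authors' comparison, named for DEGseq and a filter on differential expression. The sources used here name no aligner, counting tool, build or annotation. Per the file headers, the deposited table holds read counts, expression values, a log2 ratio, and p-values and q-values. The deposited expression values behave as RPM: count divided by value gives 1 total per library, taken from the most abundant miRNA. The authors' log2 ratios lie 0.35 above those of the RPM values, and their p-values were not used. Groups came from the source names.

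Folds are ratios of counts over library totals, with 95% Clopper-Pearson intervals (exact) from both counts. Levels carry exact Poisson intervals, and ratios of folds and of arms Wald intervals on the log scale. A count of 0 was set to a floor of 3 counts. No molecular identifiers are mentioned, so all intervals cover counting error only. At 31780927 and 30063448 reads, the floors are 0.0944 RPM in uNK and 0.0998 RPM in pNK. The main arm is the more abundant one, and family shares count main arms only, since the other arm carries another seed. Family membership and roles are background knowledge, as no sequences were used here.

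The members, the lists and the rules were chosen with earlier results of these data known. Named were all listed arms of the members and of the miR-17 cluster, and the 3 annotated miRNAs with the nearest ratio among those with at least 1000 reads. The plan took miR-92b for a gene outside both clusters; the gene table of ARS1.2, used only for neighbours, changed that. Alternatives were scaling to the listed totals, by TMM (edgeR 4.0.16 under R 4.3.3) or by the median ratio, 1 or 5 RPM added to both libraries, read minimums of 100 and 1000, summed arms and the removal of single members. The fold and ratio intervals were tested on simulated Poisson counts, with a constant added to each mean. That covers neither counts as low as those of miR-106a-3p and miR-18b-3p nor variation between replicate libraries. Python 3.11.15, numpy 2.4.6, pandas 2.3.3, scipy 1.17.1 and matplotlib 3.10.9 were used.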

Additional observations from a re-analysis of the deposited data

How the results depend on the processing

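No paired analysis was possible because uNK and pNK are single libraries, which also means that none could be left out. Against the library totals, every log2 ratio moved by 0.74 with TMM, by 0.35 with the listed totals and by -0.67 with the median ratio, all computed on miRNAs called different. No member turned direction under any of these, and none could. Every annotated arm listed as lower had a log2 ratio of -1.38 or below, and the largest upward shift was 0.74. With TMM, miR-20b came to -0.68, under a 2-fold difference, and the other 12 arms stayed past it. A pseudocount of 1 RPM left 11 arms and one of 5 RPM left 10 arms at least 2-fold lower, and with arms summed it was 8 of 8 miRNAs. The median log2 ratio was -4.10 with the median ratio and -2.69 with TMM. Adding 5 counts to each arm turned the log2 arm ratio difference of miR-106a to -0.70, against 0.64, at 1 and 14 reads of its 3p arm. It moved that of miR-18b to -3.42, against -0.77, where the 3p arm had 0 reads in uNK, so that 3 hairpins in place of 2 differed at least 2-fold, and it left miR-106b, miR-93 and miR-25 in their direction. With main arms only, miR-93-5p took 56.4% in pNK. Of the table's 366 entries lower in uNK, 144 carry goat names and 186 have at least 100 reads. Chosen after the data were seen, the 3 scalings gave 5.92-fold (listed totals), 12.0-fold (median ratio) and 4.503-fold (TMM) lower for all members summed. Likewise, leaving out miR-93-5p gave 6.01-fold lower for miR-106b-25, and leaving out miR-92b gave 9.69-fold lower for miR-106a-363. Depth limits both arms of miR-106a, and miR-18b-3p, most.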
